A study of Mus musculus with 10 samples.

Results

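The genes examined here are the axon guidance ligands and receptors measured on an Applied Biosystems single-channel mouse array. They were the ephrins and Eph receptors, semaphorins, plexins and neuropilins, netrins with Dcc, neogenin, the Unc5 receptors and Draxin, Slits and Robos, and the Rgm genes, found by gene symbol, and they came to 67 genes on 72 probes out of 13840 genes named in the platform annotation. Where several probes carried 1 symbol, the probe with the highest mean log2 intensity over the 10 arrays stood for the gene. The symbol pattern also took in Unc50 and Unc5cl, which are not netrin receptors: Unc50 encodes a protein of intracellular membranes and Unc5cl a cytoplasmic relative of the Unc5 receptors without their ligand-binding part. They are counted among the 67 because they match the pattern and are described apart.

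RNA was compared from the retina of adult C57/B6 mice, a pool of 350 animals, and from the cortex of postnatal day 1 mice, a pool of 19 animals, each hybridised to 5 arrays. No treatment or transgene is named for either pool. The cortex mice are C57/B6 in the sample descriptions and Swiss-Webster in the series text, and the retina titles include an unexplained P1, with adult taken from the descriptions. Tissue thus went with age and possibly with strain, which cannot be told apart here, and all 5 arrays of either tissue drew on 1 pool, so that p-values measure the spread between arrays and not between animals. Both labels matched their markers: all 11 measured photoreceptor genes were higher in retina, and 6 of 7 measured cortical projection neuron genes were lower.

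Growing axons are steered by ligands in their surroundings that bind receptors on the growth cone. Ephrins act on contact, being tied to the membrane of the neighbouring cell by a lipid anchor (ephrin-A) or a transmembrane segment (ephrin-B), and signal through Eph receptor tyrosine kinases. Class 3 semaphorins are secreted and signal through plexins, most of them by way of a neuropilin that binds them, netrins attract through Dcc and repel through Unc5 receptors, Slits repel through Robos, and repulsive guidance molecules (Rgm) act through neogenin. In the visual system these families are known for guiding retinal ganglion cell axons and for the map they form in the brain, and in the cortex for guiding callosal, corticospinal and thalamic axons. RNA of whole pooled tissue keeps no position within it, so graded expression across retina or cortex is averaged.

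The promoters of 4 genes called in opposite directions are printed here: Slit2 and Ntn4 were higher in retina, Nrp1 and Robo1 were lower. They have the largest differences in each direction among genes whose arrays did not overlap between tissues and that have an entry in the RefSeq promoter table (GRCm38.p6, 56 of the 67 genes). Sema3b and Sema3f (log2 differences, retina less cortex, of 2.32 and 2.02) have no entry, so Ntn4 (1.30) is printed instead. Rgma (-3.72) has no entry either. Each line gives the 250 bases before the annotated start, 5′ to 3′, with matches to 4 motifs in capitals. Only the first start listed for a gene was used, here and in the shares below, and any other start was not searched.
Slit2: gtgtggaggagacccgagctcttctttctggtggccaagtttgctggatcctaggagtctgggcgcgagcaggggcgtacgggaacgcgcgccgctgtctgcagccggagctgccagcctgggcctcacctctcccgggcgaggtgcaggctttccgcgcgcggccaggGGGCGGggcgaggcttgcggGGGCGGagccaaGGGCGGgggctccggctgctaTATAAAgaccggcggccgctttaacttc
Ntn4: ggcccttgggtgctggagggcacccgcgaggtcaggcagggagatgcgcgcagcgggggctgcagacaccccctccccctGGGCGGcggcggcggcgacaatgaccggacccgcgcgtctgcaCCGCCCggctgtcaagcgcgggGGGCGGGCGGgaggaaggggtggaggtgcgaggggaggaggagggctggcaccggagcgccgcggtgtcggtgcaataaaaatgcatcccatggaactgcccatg
Nrp1: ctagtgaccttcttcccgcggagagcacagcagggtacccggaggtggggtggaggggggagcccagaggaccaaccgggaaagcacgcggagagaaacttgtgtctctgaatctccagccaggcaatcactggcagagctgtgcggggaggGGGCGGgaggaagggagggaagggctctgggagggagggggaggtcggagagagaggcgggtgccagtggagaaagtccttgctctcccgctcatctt
Robo1: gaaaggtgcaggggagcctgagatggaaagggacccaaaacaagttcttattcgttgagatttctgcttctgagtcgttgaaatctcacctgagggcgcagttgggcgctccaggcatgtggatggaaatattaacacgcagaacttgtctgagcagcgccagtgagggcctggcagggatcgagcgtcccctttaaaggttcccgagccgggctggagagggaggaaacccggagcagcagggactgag
The stretches are, in the same order, chr5:47982905-47983154, chr10:93640799-93641048, chr8:128358823-128359072 and chr16:72662899-72663148, all on the + strand. The motifs, searched on both strands, were the TATA box TATAAA, the CRX and OTX core TAATCC, the E-box CAGATG and the GC box GGGCGG, and 2 overlapping GC boxes in Ntn4 appear as 1 run of capitals. Slit2 holds a TATA box at position -28 from the start and GC boxes at -81, -61 and -49. Robo1 holds a match to none of the 4, which says only that these letters are not in this window. Over all 27025 genes of the table, a GC box was found in 32.9% and a TATA box in 13% of such windows. Among the 56 guidance genes the counts were 40 (71.4%) for the GC box and 3 (5.36%) for the TATA box, and the median GC content was 64.6% against 52.0% over the whole table. A GC box was present in 3 of the 4 promoters of genes higher in retina and in 15 of the 23 of genes lower in retina. The CRX and OTX core was found in 1 of the 56 windows (1.79%), against 6.38% over the whole table. The E-box was found in 3 (5.36%), against 14.5%. These matches are a description of letters and not of binding.

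More guidance genes were lower than higher in adult retina against newborn cortex. A call required a difference of at least 2-fold at an adjusted p below 0.05 (limma, Benjamini-Hochberg over the 33012 probes). Every difference below is a log2 level in retina less that in cortex, with its standard error (SE). Of the 67 genes 33 were called, against 25.4% of all probes. There were 27 lower in retina (40.3%), against 13.3% of all probes and 14.7% of the named genes, and 6 higher (8.96%), against 12.1% and 14.2%. The median difference was -0.76, against -0.01 over all probes. Of the 34 without a call, 14 had an adjusted p under 0.05 with a difference under 2-fold and 20 missed the p threshold. The 5 values of one tissue lay entirely above the 5 of the other in 43 of the 67 (64.2%), against 40.5% of all probes. In these bulk RNAs, fewer cells of a type and less RNA per cell cannot be told apart.

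The scaling of the arrays and dim signal limit these counts. Median intensities as deposited were 836 to 987 on the retina arrays and 1255 to 1341 on the cortex arrays, and the values below were quantile-normalized on the log2 scale, which removes that difference. Without normalization the median of all probes was -0.41, and 3 guidance genes were called higher and 40 lower. The distance of the guidance genes' median from that of all probes was -0.77, against -0.75 after normalization. Taking the distance from that median removes an overall shift between tissues, so it cannot show whether scaling matters. With an offset of 500 intensity units added before the log, the distance was -0.51. Higher calls were 18.2% of the guidance genes' calls with normalization and 6.98% without, and for all probes 47.6% and 24.5%. As no detection call was used, the 95th percentile of 747 olfactory receptor probes (10.77 in retina, 10.65 in cortex) served as a yardstick, and a mean below it is called dim. Of the 67 genes 21 were dim in both tissues, against 51.5% of all probes and 37.8% of the named genes, and 4 of the 21 were called. Among the 27 lower genes 13 were above the yardstick in both tissues, 11 were dim in retina alone, so that the size of their difference is set in part by dim signal, and 3 were dim in both. The median SD over 5 arrays was 0.17 in retina and 0.12 in cortex for the 31 genes above the yardstick in both tissues, and 0.61 and 0.56 for the 21 dim in both.

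**Figure D1:**
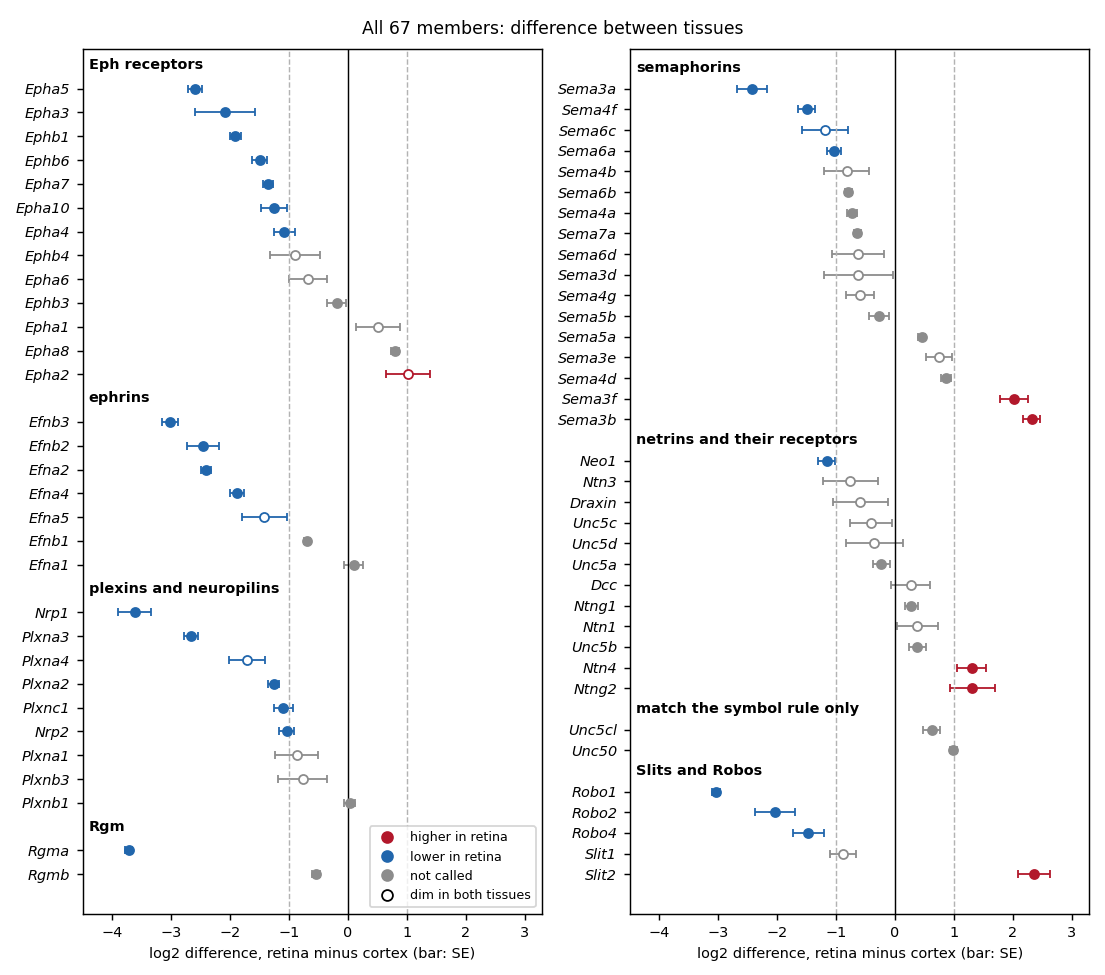
Difference in log2 intensity, retina minus cortex, for each of the 67 genes (points, with limma's SE as bars, 5 arrays per tissue), grouped by family and coloured by call, with dashed lines at a 2-fold difference and open points for genes dim in both tissues. Rgma (-3.72) and Nrp1 (-3.62, dim in retina) lie farthest to the left and Slit2 (2.36, dim in cortex) farthest to the right, and no ephrin, plexin, neuropilin or Robo was called higher in retina.

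Eph receptors, the receptor tyrosine kinases that read ephrins, were more often called lower than higher in retina. Of 13 measured, 7 were lower (53.8%) and 1 higher (7.69%), against 14.7% and 14.2% of all named genes. The median difference was -1.08. With the offset of 500 before the log 5 were lower and none was called higher (median -0.81). Without normalization 9 were lower and none was called higher (median -1.60). The EphA receptors, which chiefly bind ephrin-A, had 5 of 9 lower and the EphB receptors 2 of 4, counts that rest on few genes. Epha5, a receptor of the retinal and cortical maps (probe 644600), had log2 intensities of 10.84, 11.10, 11.24, 10.52 and 10.86 on the retina arrays and 13.59, 13.52, 13.47, 13.42 and 13.52 on the cortex arrays. Every cortex array lay more than 4-fold above every retina array, with a difference of -2.59 (SE 0.12, limma's Benjamini-Hochberg adjusted p = 4.40e-12). Ephb1, which is known for steering ventrotemporal retinal axons to the same side of the brain at the chiasm, was at 12.51, 12.51, 13.01, 12.81 and 12.88 in retina and 14.67, 14.62, 14.62, 14.73 and 14.65 in cortex. Its groups did not overlap and the difference was -1.91 (SE 0.087), with both tissues above the yardstick. Ephb6, a family member without kinase activity, was at 10.73, 11.22, 11.55, 11.14 and 11.14 in retina and 12.66, 12.67, 12.56, 12.77 and 12.63 in cortex. That is a difference of -1.5 (SE 0.13), again without overlap.

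Of the other Eph receptors called lower, Epha7 was at -1.35 (SE 0.084), from 12.29 to 12.65 in retina and 13.58 to 13.90 in cortex. Epha3 was called at -2.08 (SE 0.51) although its retina values, 11.28, 8.69, 9.34, 7.53 and 8.13, overlapped those of cortex, which were 11.29, 11.27, 11.26, 10.62 and 10.91. Retina array 1 alone reached the cortex range. The retina mean of Epha3 was dim, and its difference was -1.26 with the offset. Epha10, which also lacks kinase activity, and Epha4, which binds ephrins of both classes, were dim in retina too, at -1.25 (SE 0.22) and -1.08 (SE 0.18). Epha4 lost its call without retina replicate 2 (-0.98), and both lost it with an offset of 500 intensity units added before the log. Epha2 was the 1 receptor called higher (1.02, SE 0.38, limma's Benjamini-Hochberg adjusted p = 0.0379), but it was dim in both tissues, its groups overlapped and its other probe pointed the other way at -0.96 (SE 0.42). The call on Epha2 was lost on leaving out any of 6 arrays (retina replicates 1, 2, 4 and 5 and cortex replicates 4 and 5), where the difference was 0.83 to 1.03, without normalization (0.58), with the offset (0.54) and with the replicate number as a block (limma adjusted p = 0.0525), so it is uncertain. Epha8 went toward retina by less than 2-fold, with means of 13.92 ± 0.11 and 13.12 ± 0.07 (SD, n = 5) that differ by 0.80 (SE 0.064). Ephb3 (-0.19), Ephb4 (-0.90), Epha6 (-0.68) and Epha1 (0.51) were not called, and all but Ephb3 were dim in both tissues.

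Ephrins, the ligands of these receptors, were mostly lower in retina. Of 7 measured, 5 were lower in retina (71.4%) and none was called higher, against 14.7% and 14.2% of all named genes. The median difference was -1.89. With the offset 4 were lower and none was called higher (median -1.56). Without normalization 6 were lower and none was called higher (median -2.35). Efnb3, known as a midline barrier to corticospinal axons, was at 11.36, 10.75, 10.48, 11.01 and 10.45 in retina and 13.94, 13.84, 13.94, 13.75 and 13.69 in cortex. It was 8.13-fold lower in retina (-3.02, SE 0.14, limma's Benjamini-Hochberg adjusted p = 1.17e-11). Its retina mean of 10.81 was just above the yardstick of 10.77, and the difference was -2.71 with the offset. Efnb2, which is also an arterial gene, was at 8.20, 8.02, 8.89, 8.92 and 9.16 in retina, all in the dim range, and at 11.19, 10.88, 11.17, 11.22 and 11.02 in cortex. The difference was -2.46 (SE 0.27), and -1.56 with the offset. Efna2, an ephrin of the visual map in the midbrain, was at 11.91, 11.70, 12.12, 11.98 and 11.83 in retina and 14.26, 14.26, 14.52, 14.22 and 14.32 in cortex. Both tissues were above the yardstick, and the difference was -2.41 (SE 0.083).

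Efna4 was also lower, at -1.89 (SE 0.12), from 10.14 to 10.55 in retina, in the dim range, and 12.15 to 12.39 in cortex. Efna5, the other main ephrin-A of the retinal map, was called at -1.42 (SE 0.38) from values dim in both tissues, 7.02 to 8.49 and 8.62 to 9.97, and was at -0.61 and not called with the offset. Efnb1 differed by less than 2-fold (-0.69, SE 0.053), although every retina array, at 14.04 to 14.21, lay below every cortex array, at 14.65 to 14.85. Efna1 was at 10.92 ± 0.18 and 10.82 ± 0.22 (SD, n = 5), which leaves 0.10 (SE 0.16).

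Of 17 semaphorins measured, 4 were lower (23.5%) and 2 higher (11.8%), and the median difference was -0.63. Among all named genes 14.7% were lower and 14.2% higher, so the higher share is near the background. Without normalization 10 were lower and 2 higher (median -1.11), and with the offset 2 were lower and 2 higher (median -0.39). The secreted class 3 held members called each way. Sema3a, the repellent first known as collapsin, was at 8.96, 9.0, 10.53, 9.54 and 10.14 in retina and 12.11, 12.01, 12.01, 12.05 and 12.13 in cortex, a difference of -2.43 (SE 0.26, limma's Benjamini-Hochberg adjusted p = 4.32e-07). All retina values were dim (-1.85 with the offset) and spread over more than 1 log2 unit, while the cortex arrays lay within 0.2 of each other. Sema3b stood at 13.08, 13.11, 12.96, 13.01 and 12.93 in retina and 10.51, 11.28, 10.73, 10.38 and 10.56 in cortex. It was 5.01-fold higher in retina (2.32, SE 0.14, limma's Benjamini-Hochberg adjusted p = 3.18e-10). Its cortex mean of 10.69 was just above the yardstick of 10.65, and the difference was 2.02 with the offset. Sema3f, the ligand that acts through neuropilin-2, was at 11.70, 11.77, 11.79, 11.82 and 11.82 in retina and 10.22, 9.74, 9.59, 10.35 and 8.87 in cortex. Here the cortex was dim and the difference was 2.02 (SE 0.24). Sema3b and Sema3f kept their call under every alternative tried, with differences of at least 1.53 under each of the scalings. Sema3e (0.74, SE 0.22) and Sema3d (-0.62, SE 0.59) were dim in both tissues and not called.

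Among the membrane semaphorins, 3 were lower in retina and none was called higher. Sema4f was at 10.73, 10.48, 10.16, 10.24 and 10.37 in retina and 11.94, 12.11, 11.89, 11.58 and 11.94 in cortex, a difference of -1.5 (SE 0.15). The groups were clear of each other, with the retina mean in the dim range. Sema6a, which binds plexin-A2 and plexin-A4, was at 11.18, 11.20, 11.17, 11.20 and 11.56 in retina and 12.24, 12.12, 12.29, 12.60 and 12.27 in cortex. Its difference of -1.04 (SE 0.12) is close to the 2-fold minimum, and the call was lost without cortex replicate 4 (-0.97), with arrays shifted to a common median (-0.95) and with the offset (-0.91). Sema6c was called at -1.19 (SE 0.39) from dim, overlapping values, with 2 retina arrays at 10.58 and 10.15 inside or next to the cortex range of 10.26 to 10.71, and without retina replicate 3 it was at -0.93 and not called. Below the 2-fold minimum, but with groups that did not overlap, were Sema6b (-0.79, SE 0.063), Sema4a (-0.73, SE 0.079) and Sema7a, the lipid-anchored ligand of plexin-C1 (-0.64, SE 0.059), on one side, and Sema4d, the ligand of plexin-B1 (0.86, SE 0.087), and Sema5a (0.45, SE 0.065) on the other. The second probe of Sema4d gave 0.85 and that of Sema7a -0.96, from dim values, each in the same direction as the first. Sema5b (-0.27) was not called, nor were Sema4b (-0.82), Sema6d (-0.63) and Sema4g (-0.60), which were dim in both tissues. Among these only Sema4g had groups that did not overlap.

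Plexins and neuropilins, the semaphorin receptors, were lower or not called. Of 9 measured, 6 were lower (66.7%) and none was called higher, against 14.7% and 14.2% of all named genes. The median difference was -1.10. With the offset 3 were lower, and without normalization 8. Nrp1, which binds Sema3a and also the vascular growth factor VEGF, was at 10.87, 8.72, 10.01, 10.43 and 10.57 in retina and 13.67, 13.81, 13.67, 13.78 and 13.74 in cortex. It was lower in retina, where its mean was dim (-3.62, and -3.08 with the offset, SE 0.28, limma's Benjamini-Hochberg adjusted p = 7.76e-09), and retina array 2 stood more than 1 log2 unit below the other 4. Plxna3, a signalling partner of neuropilins for class 3 semaphorins, was at 10.30, 10.17, 9.91, 10.21 and 10.23 in retina and 12.97, 12.89, 12.81, 12.66 and 12.84 in cortex. The groups were far apart (-2.67, SE 0.12), with the retina mean in the dim range (-2.24 with the offset). Plxna4 was at 7.80, 8.41, 7.47, 7.90 and 7.86 in retina and 9.29, 9.75, 9.13, 9.93 and 9.86 in cortex, a difference of -1.71 (SE 0.31) between values that were dim in both tissues and that came to -0.79 with the offset.

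Plxna2 was lower from values above the yardstick (-1.26, SE 0.097), from 12.83 to 13.29 in retina and 14.12 to 14.49 in cortex. Plxnc1, the receptor of Sema7a, was at -1.10 (SE 0.16) and lost its call without retina replicate 3 (-0.95) and with the offset (-0.94). Nrp2 was at 11.27 ± 0.29 and 12.31 ± 0.12 (SD, n = 5) on the probe used, a difference of -1.04 (SE 0.13) at the edge of the minimum. Its other probes were dim and at 0.06 (SE 0.36) and -0.20 (SE 0.38), and the mean over its 3 probes was -0.39 and not called. Without retina replicate 1, retina replicate 5 or cortex replicate 3 it was at -0.99, -0.95 and, rounded, -1.0, each short of the minimum, as it was with arrays shifted to a common median (-0.94) and with the offset (-0.91). Plxnb1, the receptor of Sema4d, was at 12.64 ± 0.19 and 12.61 ± 0.08, which leaves 0.03 (SE 0.092). Plxna1 (-0.87) and Plxnb3 (-0.77) were dim in both tissues and not called.

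**Figure D2:**
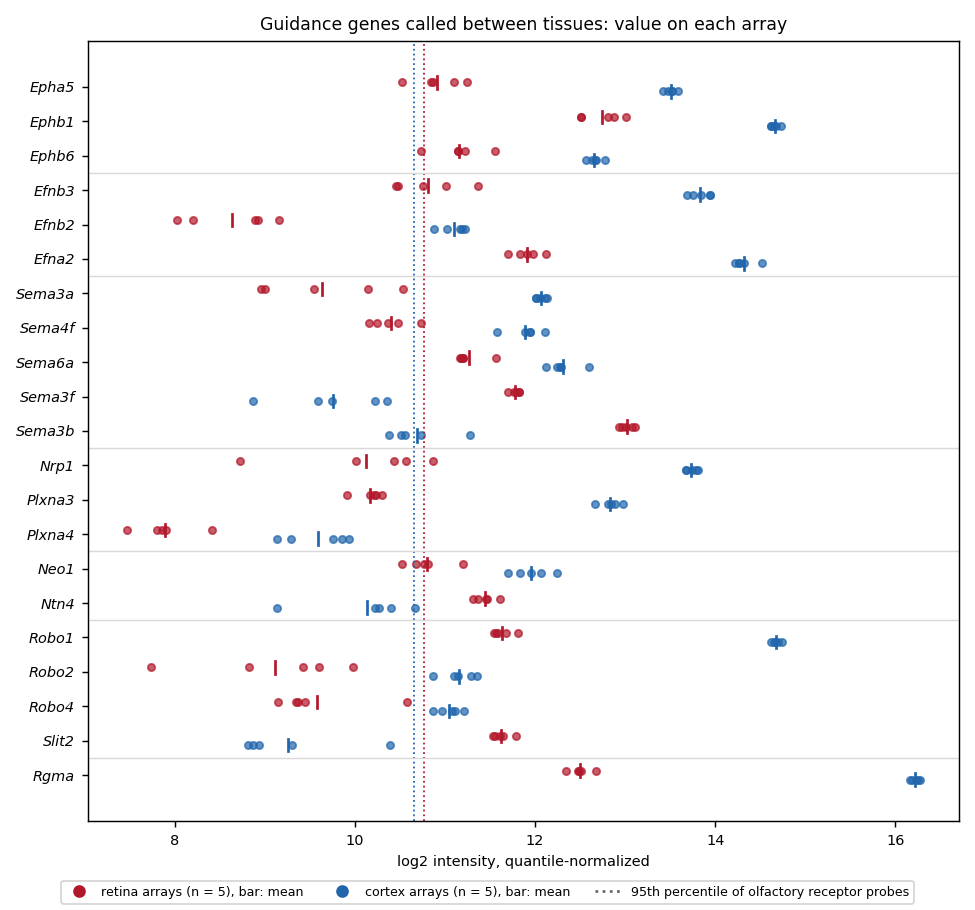
Quantile-normalized log2 intensity on each of the 5 retina arrays (red) and 5 cortex arrays (blue) for the 21 called genes chosen because their tissues do not overlap, up to 3 per family and direction, ordered by family, with bars at the means and dotted lines at the olfactory receptor yardstick (10.77 in retina, 10.65 in cortex). Rgma has cortex values of 16.16 to 16.27, and Sema3b, Sema3f, Ntn4 and Slit2 have the retina on the right.

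Of the 12 netrins and netrin receptors, 2 were higher (16.7%) and 1 lower (8.33%), near the shares of all named genes (14.2% and 14.7%), and 6 of the 12 were dim in both tissues. The median difference was 0.02, -0.42 without normalization, where none was called higher and 2 were lower, and -0.01 with the offset, where 1 was higher and none was called lower. Ntn4, a netrin that binds laminins of basement membranes, was at 11.47, 11.45, 11.61, 11.37 and 11.31 in retina and 10.27, 10.22, 9.13, 10.67 and 10.40 in cortex. The difference was 1.30 (SE 0.24), and 0.80 without normalization and 0.99 with the offset, both short of the minimum. Ntng2, a lipid-anchored netrin-G that does not bind Dcc, was at 10.29, 10.89, 11.05, 11.34 and 12.90 in retina and 9.57, 10.12, 10.60, 9.45 and 10.18 in cortex. It was called at 1.31 (SE 0.38) with overlapping groups, and without retina replicate 5, the highest, it was at 0.91 and not called. Without normalization it was at 0.80 and not called either.

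Neo1, the neogenin receptor of Rgm proteins, was at 10.68, 10.81, 11.20, 10.76 and 10.52 in retina and 11.95, 12.24, 12.06, 11.70 and 11.83 in cortex. That gives -1.16 (SE 0.15), and -0.97 with the offset. For the classical ligand Ntn1 (0.38, SE 0.35) and its attractive receptor Dcc (0.27, SE 0.33) nothing can be read, because both were dim in both tissues. The same holds for Ntn3 (-0.76), Draxin (-0.59), which binds Dcc, and the repulsive receptors Unc5c (-0.41) and Unc5d (-0.35). The Unc5 genes above the yardstick in both tissues were Unc5a, at 11.89 ± 0.36 and 12.12 ± 0.15 (SD, n = 5; -0.23, SE 0.15), and Unc5b, at 11.25 ± 0.19 and 10.87 ± 0.15 (0.38, SE 0.14), and neither was called. Ntng1 was at 0.28 (SE 0.11). Of the 2 genes taken in by name alone, Unc50 was just under the 2-fold minimum (0.99, SE 0.06) and Unc5cl at 0.62 (SE 0.15).

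Of the 2 Slits 1 was called, higher in retina, and the 3 Robos were lower. These are shares of few genes, 60.0% lower and 20.0% higher, against 14.7% and 14.2% of all named genes. Slit2, a secreted repellent of retinal ganglion cell axons, was at 11.64, 11.79, 11.55, 11.61 and 11.53 in retina and 9.30, 8.81, 8.87, 10.39 and 8.93 in cortex. It was higher in retina (2.36, SE 0.27, limma's Benjamini-Hochberg adjusted p = 9.06e-07), with the cortex in the dim range and its array 4 above the other 4. With the offset it was at 1.68. Robo1 was at 11.56, 11.68, 11.54, 11.59 and 11.81 in retina and 14.65, 14.62, 14.66, 14.70 and 14.74 in cortex, a difference of -3.04 (SE 0.065, limma's Benjamini-Hochberg adjusted p = 3.56e-16). Both tissues were above the yardstick and no 2 arrays of a tissue were more than 0.3 apart. Robo2, known as a Slit receptor of retinal ganglion cells, was at 7.74, 9.98, 9.42, 9.60 and 8.82 in retina and 11.14, 11.29, 10.87, 11.35 and 11.10 in cortex. The retina values were dim and widely spread, and the difference was -2.04 (SE 0.34). Slit1 was dim in both tissues and under the minimum, at -0.88 (SE 0.22). The promoters of Slit2 and Robo1 are printed above. A TATA box was found in 1 of the 4 promoters of genes higher in retina and in 1 of the 23 of genes lower. Any relation to the direction of the difference was not tested.

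Robo4, a Robo of endothelial cells, was at 9.14, 9.44, 9.37, 9.34 and 10.58 in retina and 10.87, 10.97, 11.21, 11.08 and 11.11 in cortex, a difference of -1.47 (SE 0.26) with the retina mean dim. Retina array 5 was close to the cortex range and the other 4 were well below it. Of 10 endothelial marker genes 3 were higher in retina, 3 were lower and 4 were not called, and the mean log2 level of the list was 11.50 to 11.92 over the retina arrays and 11.62 to 11.91 over the cortex arrays. The part of endothelial cells in the Robo4, Nrp1 and Efnb2 differences was not tested. Markers of fibroblasts and meninges were lower in retina in 7 of 8 genes, at mean levels of 9.52 to 10.10 against 12.71 to 12.83, and markers of retinal pigment epithelium were higher in 5 of 7, at 12.31 to 12.68 against 7.95 to 8.47. Their part in the guidance gene differences was not tested.

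The Rgm genes were both lower in direction, and 1 was called. Rgma, a lipid-anchored repellent of retinal axons and a coreceptor for bone morphogenetic proteins, had the largest difference of the 67 genes. It was at 12.51, 12.67, 12.49, 12.34 and 12.48 in retina and 16.18, 16.23, 16.27, 16.16 and 16.25 in cortex, 13.2-fold lower in retina (-3.72, SE 0.058, limma's Benjamini-Hochberg adjusted p = 8.52e-18). The groups lay more than 3 log2 units apart, with both above the yardstick. Rgmb was at 12.75 ± 0.11 and 13.30 ± 0.08 (SD, n = 5), which leaves -0.54 (SE 0.07) that did not reach 2-fold.

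Set beside each other, some known ligand and receptor pairs, picked by no fixed rule, gave the following. Others named above, such as Sema7a and Plxnc1, are not listed here. For Sema3a and Nrp1 both genes were lower in retina (-2.43 and -3.62), as they were for Rgma and Neo1 (-3.72 and -1.16), and for Efna2 and Epha5 (-2.41 and -2.59). For Slit2 and Robo1 the ligand was higher (2.36) and the receptor lower (-3.04). Sema3f was higher (2.02) and Nrp2 lower on the probe used (-1.04), but not called on the mean over its probes (-0.39). For Sema4d and Plxnb1 neither gene was called (0.86 and 0.03). By role, 10 of the 34 ligands were lower (29.4%) and 5 higher (14.7%), with a median of -0.64. Of the 31 receptors 17 were lower (54.8%) and 1 higher (3.23%), with a median of -1.08. Among all named genes 14.7% were lower and 14.2% higher, so the higher share of the ligands is near the background. Whether ligands and receptors differ was not tested. With the offset, receptors had 11 lower and none called higher, and ligands 7 lower and 4 higher. Without normalization these counts were 21 and 0 for receptors and 19 and 3 for ligands.

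**Figure D3:**
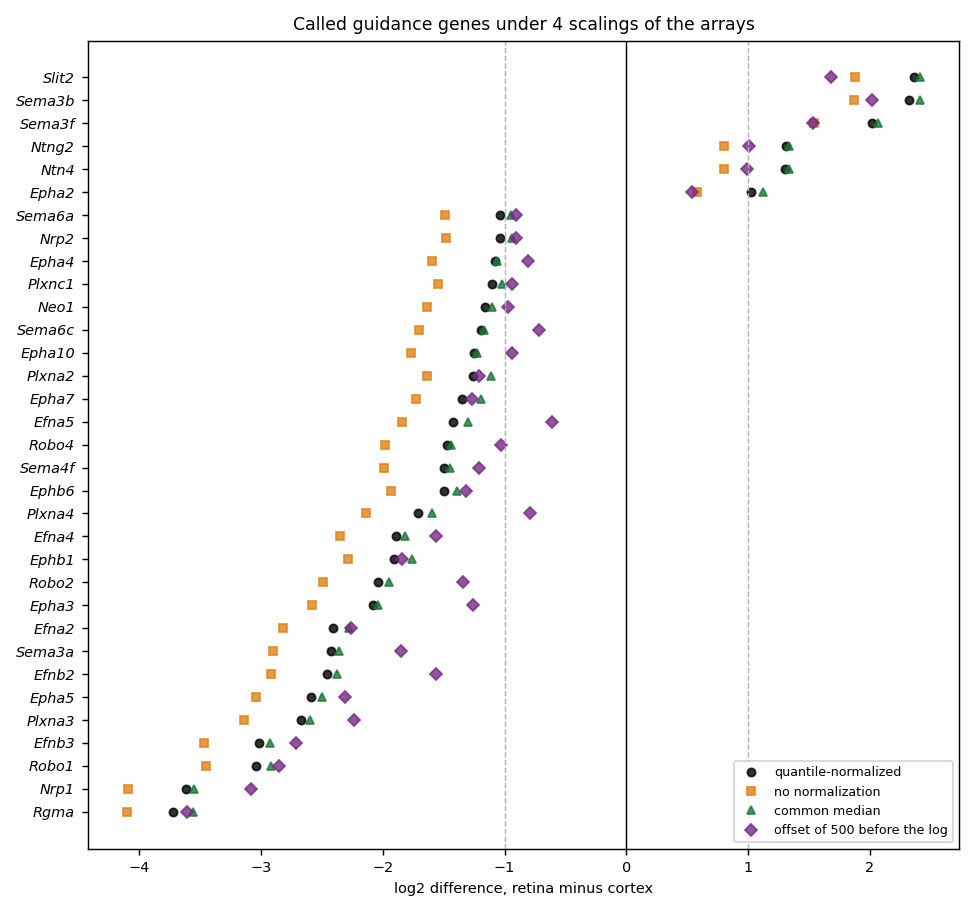
Difference in log2 intensity, retina minus cortex, of the 33 called genes under quantile normalization (circles), no normalization (squares), a shift of each array to a common median (triangles) and an offset of 500 before the log (diamonds), with dashed lines at 2-fold. No point crosses 0, the squares lie to the left of the circles, and the diamonds of dim genes such as Plxna4 (-0.79), Efna5 (-0.61) and Sema6c (-0.72) move inside the 2-fold lines.

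Genes that act beside or below these receptors were lower more often than all named genes, a difference in share that was not tested. The lists were chosen with earlier results of these data known, so their shares are no independent evidence. From 4 lists of guidance effectors, coreceptors and inhibitors of regrowth, 46 genes were measured. In the order of the lists below, 6, 9, 3 and 2 further listed genes were not measured. Of those measured, 25 were lower in retina (54.3%) and 3 higher (6.52%), with a median of -1.24. Among all named genes 14.7% were lower and 14.2% higher. Of the 46 genes 3 were dim in both tissues, against 37.8% of all named genes, so the background holds more dim genes. The counts of the single lists below rest on few genes and have the same background. Of 8 collapsin response mediators and kinases, which relay semaphorin signals, 5 were lower and none was called higher (median -2.16): Dpysl5 was at -3.91 (SE 0.14), Crmp1 at -3.12 (SE 0.058) and Dpysl3 at -2.77 (SE 0.077).

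Of 13 actin regulators and adaptors, 6 were lower and none was called higher (median -0.99), led by Mical1 (-2.98, SE 0.092) and Mical3 (-2.54, SE 0.31), of the family of actin oxidising enzymes that act below plexins, and the actin severing gene Cfl1 (-2.22, SE 0.097). Of 17 adhesion coreceptors and other guidance receptors and ligands, 11 were lower and 1 higher (median -1.28). Chl1, a relative of L1 that associates with neuropilin-1, was at -6.07 (SE 0.1), the receptor tyrosine kinase gene Met at -2.93 (SE 0.37) and Vangl2, a planar polarity gene, at -2.62 (SE 0.16), while Cntn4 was higher (1.16, SE 0.091). Of 8 genes of myelin-associated inhibition, 3 were lower and 2 higher (median 0.27). Tnfrsf19, which can stand in for the p75 receptor, was at -3.56 (SE 0.21), Lingo1 at -1.77 (SE 0.068) and the Nogo receptor gene Rtn4r at -1.26 (SE 0.096), whereas its relative Rtn4rl1 (1.62, SE 0.056) and Ngfr, which encodes p75 itself (1.59, SE 0.26), were higher. The same limits of scaling and dim signal apply to these genes, 3 of which were dim in both tissues.

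**Figure D4:**
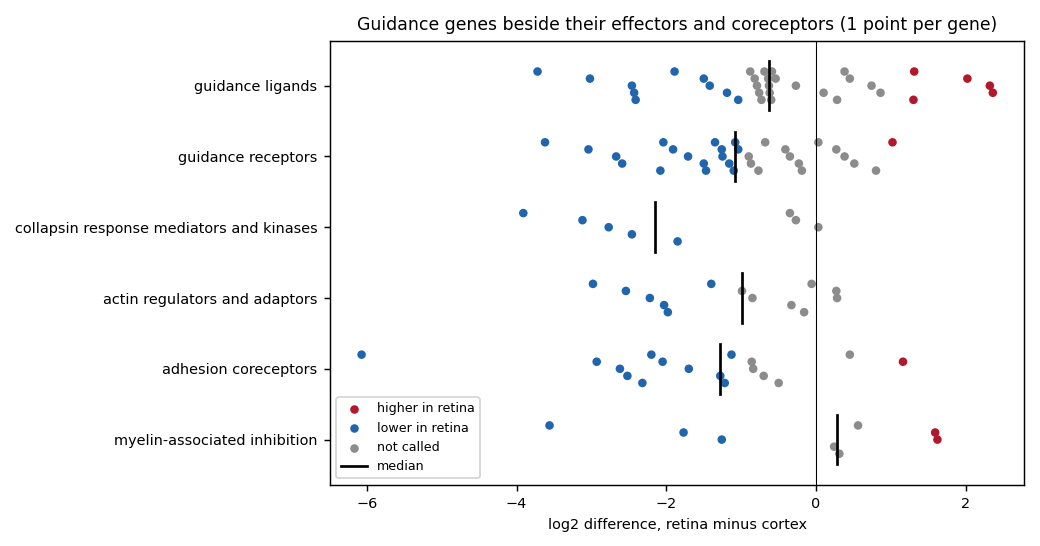
Difference in log2 intensity, retina minus cortex, with 1 point per gene, for the 34 guidance ligands, the 31 receptors and 4 lists of effectors, coreceptors and inhibitors, coloured by call, with black bars at the medians. The medians of ligands (-0.64), receptors (-1.08) and 3 of the 4 lists lie left of 0, that of myelin-associated inhibition (0.27) lies right of it, and Chl1 (-6.07) and Slit2 (2.36) are the outermost points.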

How the data were processed

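Expression was measured in 2 pooled RNAs, adult retina and postnatal day 1 cortex, on 5 arrays each, with groups and replicate numbers taken from the titles. Per the labels' protocols, digoxigenin-labelled cRNA was hybridised and read by chemiluminescence. The table deposited by the authors holds linear intensity values for 33012 probes and 10 arrays, and the scanner software, background correction and normalization behind them are not given in the sources used here. The number of arrays limits the precision.

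Values were put on the log2 scale, quantile-normalized and compared with limma 3.58.1 in R 4.3.3 (lmFit and eBayes with trend and without covariates). P-values are 2-sided and adjusted over all probes by Benjamini-Hochberg. Gene names came from the platform annotation, which gives 1 symbol for 14411 probes, several for 247 and does not list 18354. All 72 probes of the guidance genes had a RefSeq gene of the same symbol by Entrez ID. A further list of effectors is not reported here. No set test was run, and the members and lists were chosen with earlier results of these data known. Values on every array are given for up to 3 called genes per family and direction whose groups do not overlap, and for Epha3 and Ntng2, which were added after their values were seen. Of each effector list up to 3 called genes per direction are named. Tested on simulated data with the 33012 probes and both tissues, 97 of 100 changes of 3 and 68 of 100 changes of 1.5 log2 units were called with the right sign, and 10 unchanged probes were called. The simulation changed only 200 probes, whereas 25.4% of all probes were called in the data. Its rates therefore need not hold for this comparison. Promoter windows came from RefSeq (GRCm38.p6). No genome was used. The alternatives were 3 other scalings (no normalization, a shift to a common median, an offset of 500), no probes below the median of all log2 values (10.07) in both tissues, which kept 17867 probes and 52 of the 67 genes, eBayes without trend, a test against 1.5-fold, the replicate block, the mean over probes of a gene, no minimum fold, no guidance genes below the olfactory receptor yardstick in both tissues, and each array left out.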

Additional observations from a re-analysis of the deposited data

Results flagged for a closer look

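In 134 groups of 5 arrays, 2 for each of the 67 genes, 8 held an array that stood apart from the other 4 by more than Dixon's critical value of 0.71 of the group's range, and chance gives about 1 in 20 groups. In called genes, Robo4 reached 10.58 on retina array 5 (others 9.14 to 9.44) and Sema6a reached 11.56 on the same array (others 11.17 to 11.20). Among genes that were not called, Draxin was at 10.49 on retina array 1 (others 7.93 to 8.62), Epha1 at 8.75 on cortex array 1 (others 7.01 to 7.24), Ntn3 at 8.03 on cortex array 3 (others 9.35 to 9.65) and Sema4g at 9.02 on retina array 2 (others 9.79 to 9.89), all from genes dim in both tissues. Efnb1 was at 14.21 on retina array 2 (others 14.04 to 14.08) and Sema5a at 14.97 on cortex array 4 (others 14.67 to 14.75), both small steps in genes above the yardstick.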

How the results depend on the processing

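No called gene changed sign under any alternative run (5 genes without a call did without normalization), and 18 of the 27 lower and 3 of the 6 higher genes kept their call under all of them. Without normalization 3 guidance genes were called higher with a median of -1.18, and 2474 of all probes were higher and 7621 lower. The offset brought the median to -0.51 and the lower calls to 18. Without a minimum fold, a rule added after the data were seen, 14 guidance genes were higher and 33 lower, as were 7441 and 8263 of all probes. Leaving out 1 array at a time gave 4 to 6 higher and 26 to 28 lower guidance genes and a median of -0.80 to -0.69. In genes not called, leaving out 1 array brought a call for Draxin (-1.05 without retina replicate 1), Ntn3 (-1.19) and Plxna1 (-1.08) without retina replicate 2, Sema4b (-1.02 without retina replicate 3), Ephb4 (-1.23 without retina replicate 4, -1.13 without cortex replicate 2), Plxna1 (-1.04 without cortex replicate 5) and Unc50 (1.02 without retina replicate 1 or cortex replicate 4). The causes were not tested.

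The labels do not say whether arrays of equal replicate number share anything. Deviations of same-numbered arrays correlated at -0.0202 to 0.0288 over 5 pairs, and 3 of 5 retina arrays were closest to the cortex array of their own number. These values do not settle whether the numbers pair the arrays. With the replicate block 5 guidance genes were higher and 27 lower. With no detection call, whether a dim probe carried signal was not tested.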
